A study of Rattus norvegicus with 6 samples.

Results

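The genes described here encode enzymes that make or remove prostanoids and enzymes that open lipid epoxides. They are Ptgs1, Ptgs2, Ptges, Ptges2, Ptges3, Ptgds, Hpgd, Ephx1, Ephx2 and Ltc4s, chosen by symbol from an earlier reading of the same libraries. All 10 were found, each on a single row, among the 32930 gene rows of the deposited table. In the pathway annotation that the table carries, 8 of the 10 belong to arachidonic acid metabolism and the other 2, Hpgd and Ephx1, do not.

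Liver RNA of 3 animals in the HFD group and 3 animals in the HTG group was sequenced to look for genes through which HTG, the herbal Huazhuo Tiaozhi granule, may act in dyslipidaemia. The HFD group was fed a high-fat diet with 0.5% CMC-Na, the vehicle, and the HTG group was fed a high-fat diet with HTG, both over an intervention of 12 weeks. The treatment tag of the HTG samples reads HCG, whereas their titles and the series design read HTG, and the samples of both groups are labelled as nonalcoholic fatty liver. The labels name rats, the study's RNA sequencing methods name dyslipidaemic C57BL/6 J mice, and the rows of the table are mouse Ensembl genes, so the values are read as mouse genes. Age is not given in the sources used here, and the study's methods describe gavage with HTG or vehicle for its rats. Each sample is labelled as a separate library of its group, and p-values measure the spread between these 6 libraries.

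Prostanoids are short-lived lipid signals made from arachidonic acid. Cyclooxygenases convert the acid to an unstable endoperoxide, terminal synthases turn that into prostaglandins, and an oxidation followed by a reduction inactivates them. In liver, macrophages, endothelium and platelets are known sources of prostanoids, whereas hepatocytes take up and degrade them, and also carry the cytochrome P450 enzymes that make fatty acid epoxides and the hydrolases that open these epoxides to diols.

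The authors deposited an estimated count and an FPKM value per gene and library, where FPKM corrects the number of fragments for the length of the transcript and the size of the library. Values per library are always given in the order of libraries 1, 2 and 3 of a group. The HFD libraries held 65353298, 70910444 and 69907057 estimated counts in all, and the HTG libraries held 78549295, 90563477 and 50648778. Among low counts, 4, 8 and 12 were more frequent than the values next to them (a count of 4 occurred 6450 times, 3 occurred 2549 times and 5 occurred 1757 times), but counts of 1 and 2 were also common (5104 and 4229 times), and 6 and 10 (2171 and 1495 times) exceeded their neighbours too. As an assumption that these values do not prove, 1 fragment was taken as about 4 counts, and the limit of an empty gene, 3 fragments, as 12 counts. At 2 counts per fragment, which these values would also allow, the limit would be 6 counts. The limit of 12 counts corresponds to between 0.123 and 0.256 CPM, where CPM are counts scaled to a normalised library size, and it covers counting error only. HTG library 3 was the shallowest and so has the highest limit. The libraries correlated with r between 0.950 and 0.980 over genes (which are not replicates), and all 6 differed from one another.

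Liver identity was clear from the hepatocyte marker list. Alb, which encodes albumin, had the highest level of that list, between 20515 and 31602 FPKM over the 6 libraries. All 8 hepatocyte markers were tested, and their summed level was 40923, 41540 and 44749 FPKM in the HFD libraries and 37533, 40217 and 33255 FPKM in the HTG libraries. Every HTG sum was thus below every HFD sum, as the levels of Hpgd, Ephx1 and Ptges2 also were. All other levels below come from the same whole-liver RNA, in which fewer cells of a type and less RNA per cell cannot be told apart.

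The 10 genes spanned a wide range of levels. By mean FPKM over the 6 libraries the order was Ephx2 (259 FPKM), Ephx1 (175 FPKM), Hpgd (31.0 FPKM), Ptges3 (25.4 FPKM), Ptgs1 (5.12 FPKM), Ptges2 (2.46 FPKM), Ptgds (1.65 FPKM), Ltc4s (0.953 FPKM), Ptgs2 (0.702 FPKM) and Ptges (0.365 FPKM). Ephx2 ranked 181st and Ptges 14051st among all gene rows. Pooled over the 6 libraries, the ranges of neighbours in this order crossed, except between Ptges3 and Ptgs1 and between Ptgs1 and Ptges2. Within each of the 6 libraries, Ephx2 was above Ephx1, Ephx1 above Hpgd, Ptges3 above Ptgs1 and Ptgs1 above Ptges2, while the order of the other neighbours turned in at least 1 library and is not resolved. The epoxide hydrolases Ephx1 and Ephx2 made up between 80.9% and 91.0% of the summed FPKM of the 10 genes in every library.

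**Figure D1:**
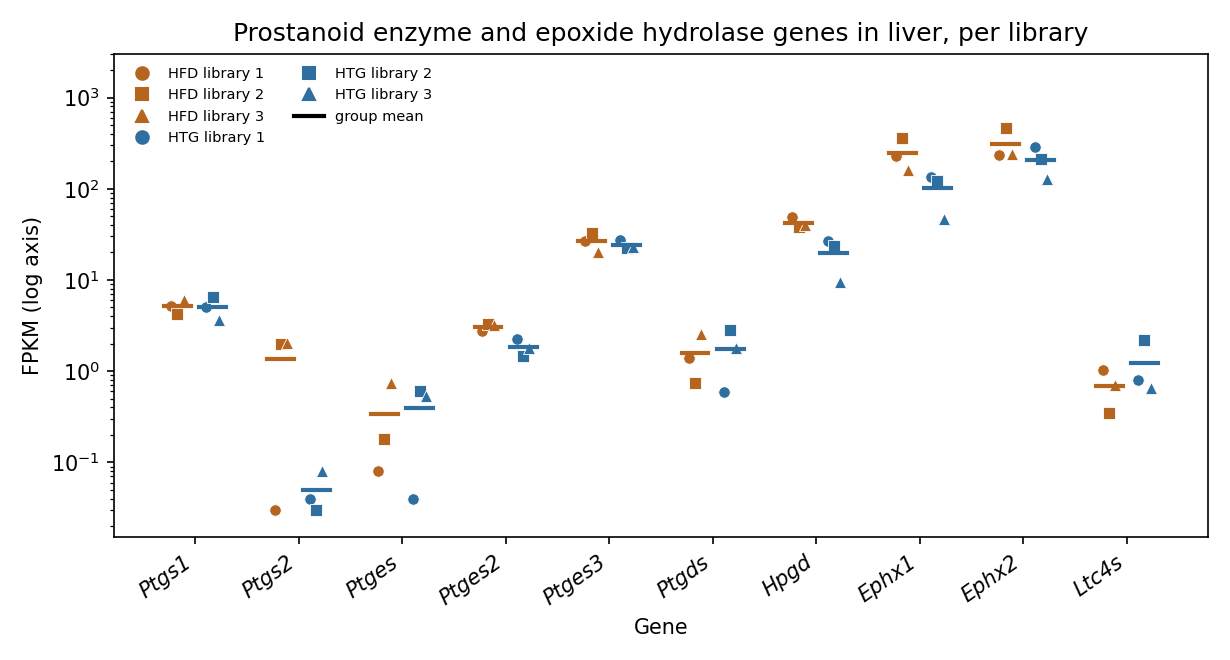
FPKM (log axis) of the 10 genes in each of the 3 HFD and 3 HTG libraries, with 1 point per library and a bar at each group mean. The points of Ephx1, Hpgd and Ptges2 in the HTG group all lie below those of the HFD group, and Ptgs2 is near 2 FPKM in HFD libraries 2 and 3 and at 0.08 FPKM or less in the other 4.

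All 10 genes passed the expression filter and were tested with the 18455 genes of the whole table that passed it. With edgeR's quasi-likelihood test and Benjamini-Hochberg adjustment over all genes tested, at an adjusted p under 0.05, 0 of the 10 were lower in the HTG group, against 0.00542% of all genes tested, and 0 were higher, against 0.00542%. At an unadjusted p under 0.05, 4 of the 10 were lower in the HTG group (Ptgs2, Hpgd, Ptges2 and Ephx1), against 12.4% of all genes tested, and 0 were higher, against 12.3%. In normalised counts, the groups were free of overlap for 3 of the 10 with the HTG group below (Ephx1, Hpgd and Ptges2), against 15.5% of all genes tested, and for 0 with the HTG group above, against 16.5%. With 3 libraries against 3, an exact two-sided permutation test of a single gene cannot give a p below 0.1. Fitted log2 fold changes (HTG against HFD) were negative for 6 of the 10 and positive for 4, with a median of -0.34, beside a median of 0.025 over all genes tested. With single libraries left out the median of the 10 ran from -0.57 (without HTG library 1) to -0.12 (without HFD library 2), and it was -0.085 over the 9 genes with at least 10 counts in every library, so its size is not settled.

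The choice of tool moved these calls. DESeq2 gave an adjusted p under 0.05 to 4 of the 10, which were Ptgs2 (0.00908), Ephx1 (0.0124), Hpgd (0.0126) and Ptges2 (0.0493), the same 4 that had an unadjusted p under 0.05 in edgeR. All 4 were lower in the HTG group, as were 7.36% of all genes tested at that threshold. Over the whole table DESeq2 called 1109 genes higher and 1358 lower in the HTG group, where edgeR's quasi-likelihood test called 1 and 1. Limma on log2(FPKM + 0.1) tested the 7 genes whose mean FPKM was at least 1. It gave an adjusted p under 0.05 to 0 of them, against 8.03% of all genes that this fit tested. It gave an unadjusted p under 0.05 to 3 of them, all lower in the HTG group, against 19.1% of all genes that it tested.

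Ptgs1 and Ptgs2 encode the cyclooxygenases, which catalyse the first committed step. Ptgs1, the constitutive form (ENSMUSG00000047250, chromosome 2, 36120438 to 36142284, in the coordinates of the table, whose build is not stated for mouse genes), received 1367, 1212 and 1709 counts in the HFD group against 1645, 2457 and 766 counts in the HTG group. Its level was 5.18, 4.22 and 6.08 FPKM in the HFD group and 5.06, 6.54 and 3.65 FPKM in the HTG group. The lowest and the highest level were both in the HTG group, so that its libraries enclosed those of the HFD group. The group means were 5.16 ± 0.930 FPKM (SD, n = 3) and 5.08 ± 1.45 FPKM (SD, n = 3). The log2 fold change of Ptgs1 was 0.014, with a 95% interval from -0.45 to 0.48 and an adjusted p of 0.977 in edgeR's quasi-likelihood test, and its sign turned under other tools and scalings. A difference within that interval was not detectable with these libraries. An unnamed transcript on the opposite strand, Gm43621, overlaps 2022 bases of Ptgs1 and had 179 counts over the 6 libraries, against 9156 for Ptgs1.

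Ptgs2, the inducible cyclooxygenase (ENSMUSG00000032487, chromosome 1, 149975782 to 149983978), was at a low level in 4 of the 6 libraries. Its level was 0.03, 1.99 and 2.04 FPKM in the HFD group and 0.04, 0.03 and 0.08 FPKM in the HTG group. The counts in the HTG libraries lay between 13 and 20, close to the 12 counts that an empty gene allows, and HFD library 1 with 8 counts was below that limit (though above the 6 counts of the lower one). HFD libraries 2 and 3 therefore stood apart from the other HFD library as well as from the HTG libraries, and the groups overlapped. Ptgs2 had a log2 fold change of -4.79 (standard error 1.29, 95% interval from -7.74 to -1.84, unadjusted p = 0.00545, adjusted p = 0.0791 in edgeR's quasi-likelihood test). Leaving out any single library gave values between -5.37 and -4.34, and since 4 of the libraries were near or below the limit, the size of this fold change is uncertain. On log2(FPKM + 0.1) with no filter, limma gave -2.49 on that scale and an unadjusted p of 0.0513. Ptgs2 is named by a label in the study's volcano plot of these libraries, so its direction here is not independent evidence.

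In HFD libraries 2 and 3 the ratio of Ptgs1 to Ptgs2 in FPKM was 2.12 and 2.98. For the other 4 libraries no ratio is given, as Ptgs2 was near or below the limit of an empty gene there. Over the 6 libraries the normalised log2 counts of Ptgs1 and Ptgs2 had a Pearson r of -0.024, given as a description.

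Among 13588 genes with a mean of at least 1 CPM, the 5 with the normalised log2 counts most like those of Ptgs2 over the 6 libraries were Gm7993 (r = 0.997), Polr1a (r = 0.997), Lars (r = 0.994), Lif (r = 0.989) and Slc7a1 (r = 0.988). Lif, which encodes a cytokine of the interleukin 6 family, received 6, 236 and 277 counts in the HFD group against 4, 18 and 4 counts in the HTG group. Slc7a1, which encodes a transporter of cationic amino acids, received 42, 428 and 470 counts in the HFD group against 55, 101 and 38 counts in the HTG group. Both were thus high in the same 2 HFD libraries as Ptgs2, and Lif reached the mean of 1 CPM through those libraries alone. Genes listed here as most like a member were chosen by that likeness, so a shared pattern was fixed by the choice. Polr1a and Lars also had their 2 highest levels in HFD libraries 2 and 3, over a much smaller range. That range was from 1.89 to 2.57 FPKM for Polr1a and from 4.32 to 6.72 FPKM for Lars. Among the other 4 libraries their order in FPKM was not that of Ptgs2. In normalised counts, on which likeness was ranked, their order among those libraries was that of Ptgs2.

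Ptgs2 is also a target of NF-kappaB and an immediate early gene, and a list of other genes of that kind was described beside it. Of 21 listed, 20 were tested, with 2 higher (against 12.3% of all genes tested) and 3 lower (against 12.4%) in the HTG group at an unadjusted p under 0.05 and a median log2 fold change of -0.12. These numbers are near the shares over all genes tested and are no result about the list. The summed level of the list was 187, 108 and 157 FPKM in the HFD libraries and 163, 401 and 472 FPKM in the HTG libraries, and Cxcl1 was the largest part of it in HTG library 3. The most abundant gene of the list, the chemokine gene Cxcl1, was at 47.8, 12.3 and 21.0 FPKM in the HFD group and at 66.9, 159 and 333 FPKM in the HTG group (log2 fold change 2.89, adjusted p = 0.0616 in edgeR's quasi-likelihood test). With single libraries left out its log2 fold change ran from 2.06 (without HTG library 3) to 3.55 (without HFD library 1). The gene with the smallest p among those lower in the HTG group was Jun, with a log2 fold change of -0.94 (adjusted p = 0.0582 in edgeR's quasi-likelihood test). Fosl1, which encodes a subunit of the transcription factor AP-1, was looked at after its values were seen. It was at 0.09, 0.24 and 0.71 FPKM in the HFD group and at 0.00, 0.00 and 0.02 FPKM in the HTG group. Its 2 highest levels were in HFD libraries 2 and 3, as for Ptgs2. Its HTG counts, at 0, 0 and 3, were below the limit of an empty gene. It thus passed the expression filter through its HFD counts alone, and no fold change or p is given for it here. The study draws Fosl1 in a heatmap of these libraries. The part of this pathway in the Ptgs2 values was not tested.

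Markers of mesothelium, the cell layer on the liver surface, were low. All 6 listed markers were tested, none of them was at 0 in every library, and 1 was lower in the HTG group at an unadjusted p under 0.05, against 12.4% of all genes tested. Their summed level was 0.50, 2.04 and 2.52 FPKM in the HFD libraries and 0.99, 1.54 and 0.77 FPKM in the HTG libraries. The defining marker Msln was at 0.01, 0.68 and 0.73 FPKM in the HFD libraries and at 0.05, 0.09 and 0.00 FPKM in the HTG libraries (log2 fold change -3.22, unadjusted p = 0.0430, adjusted p = 0.187 in edgeR's quasi-likelihood test). With 0.09 FPKM or less in HFD library 1 and the HTG libraries, the size of this fold change is uncertain. Msln was not tested with at least 10 counts in every library or with counts divided by 4. Its unadjusted p was 0.0719 with DESeq2 and 0.193 with the replicate block, and with single libraries left out it was under 0.05 only without HFD library 1, while the median log2 fold change of the list, -1.18 with all libraries, ran from -1.64 to -0.65. Krt19, the most abundant of the list, was at 0.28, 0.87 and 1.22 FPKM in the HFD libraries and at 0.72, 1.13 and 0.60 FPKM in the HTG libraries. Msln thus stood high in the 2 HFD libraries in which Ptgs2 did, and the part of mesothelium in the Ptgs2 values was not tested.

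Ptges, Ptges2 and Ptges3 encode enzymes with prostaglandin E synthase activity. Ptges, the inducible microsomal form that is often induced together with Ptgs2 (ENSMUSG00000050737, chromosome 2, 30779483 to 30793309), received 21, 53 and 215 counts in the HFD group against 12, 232 and 114 counts in the HTG group. In FPKM these were 0.08, 0.18 and 0.75 in the HFD group and 0.04, 0.61 and 0.53 in the HTG group. HFD library 3 and HTG libraries 2 and 3 were high and HTG library 1 was at the 12 counts of the empty-gene limit, so each group held both low and high libraries. The log2 fold change of Ptges was 0.27 with a 95% interval from -2.03 to 2.57 (adjusted p = 0.896 in edgeR's quasi-likelihood test), and leaving out single libraries gave values from -0.21 to 1.57. Ptgs2 and Ptges had an r of 0.309 over the 6 libraries.

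Ptges2, the membrane-associated form (ENSMUSG00000026820, chromosome 2, 32285908 to 32295784), received 947, 1235 and 1164 counts in the HFD group against 952, 718 and 493 counts in the HTG group. Its level was 2.75, 3.31 and 3.18 FPKM in the HFD group and 2.25, 1.46 and 1.81 FPKM in the HTG group. Every HTG library was below every HFD library in FPKM and in normalised counts. The group means were 3.08 ± 0.293 FPKM (SD, n = 3) and 1.84 ± 0.396 FPKM (SD, n = 3). For Ptges2 the log2 fold change was -0.69 (standard error 0.23, 95% interval from -1.22 to -0.17, unadjusted p = 0.0157, adjusted p = 0.115 in edgeR's quasi-likelihood test). Its unadjusted p stayed under 0.05 in all 16 alternatives run, with 0.0478 as the highest.

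Ptges3, the cytosolic form and also the p23 co-chaperone of Hsp90 (ENSMUSG00000071072, chromosome 10, 127894823 to 127913141), was at 26.8, 32.3 and 20.5 FPKM in the HFD group and at 27.3, 22.3 and 23.0 FPKM in the HTG group. Its counts ran from 2749 in HTG library 3 to 5284 in HFD library 2. The lowest and the highest level were both in the HFD group, and the HTG libraries lay between them. Ptges3 had a log2 fold change of -0.09 with a 95% interval from -0.62 to 0.44 (adjusted p = 0.836 in edgeR's quasi-likelihood test), and without HFD library 2 it was 0.13.

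The processed pseudogene Ptges3-ps is a near copy of Ptges3, and how the authors' counting divided reads between the copies is not stated, which makes both counts uncertain. Ptges3-ps was assigned 723, 963 and 750 counts in the HFD group and 459, 174 and 208 counts in the HTG group. The counts assigned to the pseudogene were thus lower in every HTG library than in any HFD library, in contrast to those of Ptges3. The log2 fold change of Ptges3-ps, looked at after its values were seen, was -1.55 (unadjusted p = 0.00465, adjusted p = 0.0746 in edgeR's quasi-likelihood test).

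Between the prostaglandin E synthases, the ratio of Ptges3 to Ptges2 in FPKM was 9.74, 9.76 and 6.43 in the HFD group, compared with 12.1, 15.3 and 12.7 in the HTG group. Every HTG library had a higher ratio than every HFD library, and the groups did not overlap for Ptges2 but did for Ptges3. The share of such ratios over other gene pairs is not given here.

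Ptgds encodes lipocalin-type prostaglandin D synthase (ENSMUSG00000015090, chromosome 2, 25356721 to 25360058). Its counts were 158, 92 and 308 in the HFD group and 84, 447 and 163 in the HTG group. The corresponding levels were 1.39, 0.75 and 2.56 FPKM in the HFD group and 0.59, 2.79 and 1.80 FPKM in the HTG group. HFD library 3 and HTG library 2 were the highest of their groups, and the groups overlapped. Ptgds had a log2 fold change of 0.19 with a 95% interval from -1.12 to 1.51 (adjusted p = 0.868 in edgeR's quasi-likelihood test). Leaving out HTG library 2 gave -0.23 and leaving out HFD library 2 gave -0.12, so single libraries turned its direction. Ptges and Ptgds had an r of 0.874 over the 6 libraries, the highest for Ptges with any of the other 9 genes. The haematopoietic enzyme of the same reaction, encoded by Hpgds, was at 0.80, 0.35 and 0.76 FPKM in the HFD group and at 0.30, 0.74 and 0.27 FPKM in the HTG group.

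Hpgd encodes 15-hydroxyprostaglandin dehydrogenase, which oxidises prostaglandins in the first step of their inactivation (ENSMUSG00000031613, chromosome 8, 56747620 to 56774078). It received 5610, 4698 and 4859 counts in the HFD group against 3722, 3806 and 862 counts in the HTG group. Its level was 49.1, 37.8 and 39.9 FPKM in the HFD group and 26.5, 23.4 and 9.52 FPKM in the HTG group. HTG library 3 was the lowest, and the groups did not overlap. The group means were 42.3 ± 5.98 FPKM (SD, n = 3) and 19.8 ± 9.03 FPKM (SD, n = 3), and the HTG mean was 0.468 times the HFD mean. Hpgd had a log2 fold change of -1.07 (standard error 0.32, 95% interval from -1.80 to -0.33, unadjusted p = 0.00974, adjusted p = 0.0963 in edgeR's quasi-likelihood test). Without HTG library 3 the value was -0.75 with an unadjusted p of 0.0106, so the lower values of the HTG group did not rest on that library alone.

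Set against the enzyme of the first step, the ratio of Hpgd to Ptgs1 in FPKM was 9.48, 8.96 and 6.57 in the HFD group, compared with 5.23, 3.58 and 2.61 in the HTG group. The ratio was lower in every HTG library than in any HFD library, as was Hpgd by itself, and the share of such ratios over other gene pairs is not given. An unnamed transcript on the same strand, Gm45540, lies within Hpgd and had 145 counts over the 6 libraries, against 23557 for Hpgd.

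Of the 5 other listed genes of prostanoid inactivation and transport, 3 were lower in the HTG group, as Hpgd was, at an unadjusted p under 0.05, against 12.4% of all genes tested. All 5 were tested and had negative log2 fold changes with a median of -0.75, where 48.4% of all genes tested had negative values. At the adjusted p, DESeq2 called 3 of them lower, against 7.36% of all genes tested, and edgeR's quasi-likelihood test called 0. Zadh2, which encodes a prostaglandin reductase, is drawn in the study's heatmap of lipid genes and was the most abundant of the 5, was at 15.4, 13.3 and 23.2 FPKM in the HFD group and at 6.59, 7.2 and 6.24 FPKM in the HTG libraries (log2 fold change -1.32, adjusted p = 0.0538 in edgeR's quasi-likelihood test). Ptgr2, which encodes a reductase that acts on the oxidised products of Hpgd, was at 7.48, 7.09 and 8.85 FPKM in the HFD libraries and at 5.05, 4.15 and 3.35 FPKM in the HTG libraries (log2 fold change -0.85, adjusted p = 0.0605 in edgeR's quasi-likelihood test). Slco2a1, which encodes the prostaglandin uptake transporter, was at 3.22, 4.18 and 4.12 FPKM in the HFD libraries and at 2.48, 2.59 and 1.83 FPKM in the HTG libraries (log2 fold change -0.71, adjusted p = 0.0816 in edgeR's quasi-likelihood test). For these 3 genes, as for Hpgd, the groups did not overlap with the HTG group below, against 15.5% of all genes tested. The rest of the list, Ptgr1 (log2 fold change -0.16) and Abcc4, overlapped between the groups and had an unadjusted p over 0.05.

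**Figure D2:**
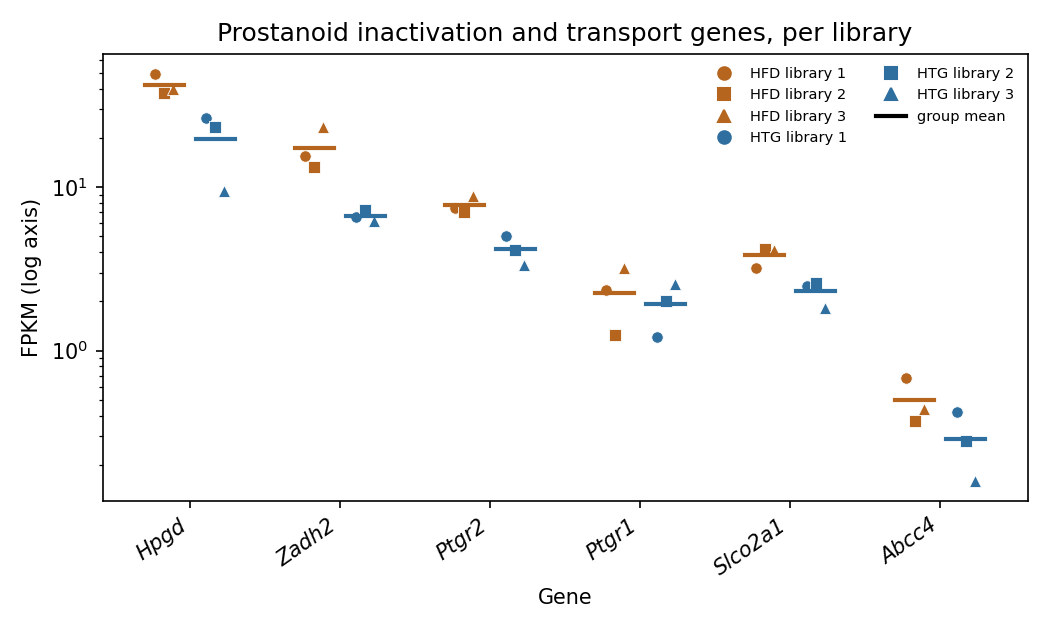
FPKM (log axis) of Hpgd and of the 5 other listed genes of prostanoid inactivation and transport in each of the 3 HFD and 3 HTG libraries, with 1 point per library and a bar at each group mean. The HTG points of Hpgd, Zadh2, Ptgr2 and Slco2a1 lie below all of their HFD points, and those of Ptgr1 and Abcc4 overlap them.

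Macrophage markers had their lowest summed level in the same library as Hpgd. All 12 Kupffer cell and macrophage markers were tested, 11 had negative log2 fold changes (against 48.4% of all genes tested), and 3 were lower in the HTG group at an unadjusted p under 0.05 (against 12.4%), with none at 0 in every library. With single libraries left out this number ran from 1 (without HTG library 3 or HFD library 1) to 5 (without HFD library 2), and the median log2 fold change, -0.42 with all libraries, from -0.14 (without HTG library 3) to -0.61 (without HTG library 1). Their summed level was 1164, 617 and 1004 FPKM in the HFD group and 822, 726 and 417 FPKM in the HTG libraries, with HTG library 3 the lowest. Lyz2, the most abundant of the list, was at 300.3, 176 and 242 FPKM in the HFD libraries and at 177, 141 and 92.4 FPKM in the HTG libraries. The defining marker Adgre1 had a log2 fold change of -1.53 (adjusted p = 0.0538 in edgeR's quasi-likelihood test), whereas the Kupffer cell marker Clec4f overlapped between the groups, at 90.0, 47.1 and 93.4 FPKM in the HFD libraries and at 79.2, 89.3 and 43.1 FPKM in the HTG libraries. Summed macrophage levels in HFD library 2 were below those of HTG libraries 1 and 2, an order that Hpgd did not share. The part of these cells in the Hpgd values was not tested.

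Ephx1 encodes microsomal epoxide hydrolase, which opens epoxides of foreign compounds and of some lipids (ENSMUSG00000038776, chromosome 1, 180803775 to 180848469). It received 29884, 51974 and 22499 counts in the HFD group against 22060, 22692 and 4884 counts in the HTG group. Its level was 226, 361 and 160 FPKM in the HFD group and 135, 120 and 46.5 FPKM in the HTG group. HFD library 2 was the highest and HTG library 3 the lowest, and the groups did not overlap in FPKM or in normalised counts. The group means were 249 ± 103 FPKM (SD, n = 3) and 101 ± 47.6 FPKM (SD, n = 3). For Ephx1 the log2 fold change was -1.31 (standard error 0.44, 95% interval from -2.31 to -0.30, unadjusted p = 0.0169, adjusted p = 0.119 in edgeR's quasi-likelihood test). Without HFD library 2 it was -0.87 with an unadjusted p of 0.0687, and this was the only one of the 16 alternatives in which the unadjusted p of Ephx1 was not under 0.05. Ephx1 is drawn in the study's heatmap of lipid genes from these libraries, so its direction here is not independent evidence.

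The 5 genes most like Ephx1 over the 6 libraries were Acsm3 (r = 0.999), Nsmce4a (r = 0.997), Aldh6a1 (r = 0.990), Mrpl37 (r = 0.986) and Ptdss2 (r = 0.984). Acsm3, which encodes a mitochondrial acyl-CoA synthetase for medium-chain acids, was at 14.1, 16.3 and 12.3 FPKM in the HFD group and at 10.8, 11.0 and 6.41 FPKM in the HTG group. The order of the libraries was nearly that of Ephx1, over a smaller range.

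Ephx1 is known as a target of the xenobiotic receptors CAR and PXR and of NRF2, and targets of both kinds were listed. Of 17 CAR and PXR targets 14 were tested, and 12 had negative log2 fold changes, against 48.4% of all genes tested. At an unadjusted p under 0.05, 8 of the 14 were lower in the HTG group (against 12.4%) and 0 higher (against 12.3%), with a median log2 fold change of -0.94. With single libraries left out, between 5 and 8 were lower. Their summed level was 3555, 2641 and 2760 FPKM in the HFD group and 1922, 2541 and 1464 FPKM in the HTG libraries. Gstm1, the most abundant, was at 2021, 1256 and 1428 FPKM in the HFD libraries and at 939, 1394 and 828 FPKM in the HTG libraries. Gsta1 had the smallest p of the list, with a log2 fold change of -3.04 (adjusted p = 0.0585 in edgeR's quasi-likelihood test), and Cyp3a25 had the smallest p among the 2 with positive values, with a log2 fold change of 0.57. HFD library 1 was the highest for the sum of the list, where HFD library 2 was the highest for Ephx1.

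All 15 NRF2 targets were tested, and 14 had negative log2 fold changes, against 48.4% of all genes tested. At an unadjusted p under 0.05, 8 of them were lower in the HTG group (against 12.4%) and 0 higher (against 12.3%), with a median log2 fold change of -0.75, and with single libraries left out between 6 and 8 were lower. Gstm1 and Gsta1 belong to both lists. The NRF2 target with the smallest p was Srxn1, at 20.8, 22.9 and 21.2 FPKM in the HFD group and at 10.4, 9.50 and 9.47 FPKM in the HTG group (log2 fold change -1.10, adjusted p = 0.0538 in edgeR's quasi-likelihood test). At the adjusted p, edgeR's quasi-likelihood test called 0 genes of either list, DESeq2 called 6 of the CAR and PXR targets and 6 of the NRF2 targets (against 13.4% of all genes tested), and limma on log2(FPKM + 0.1) with a mean FPKM of at least 1 called 2 of 12 and 4 of 14 (against 8.03%). The part of CAR, PXR or NRF2 in the Ephx1 values was not tested.

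Ephx2 encodes soluble epoxide hydrolase, which converts epoxides of arachidonic acid and other fatty acids to diols (ENSMUSG00000022040, chromosome 14, 66321823 to 66349835). It received 39226, 83981 and 43700 counts in the HFD group against 59176, 50318 and 16987 counts in the HTG group. Its level was 233, 458 and 243 FPKM in the HFD group and 285, 209 and 127 FPKM in the HTG group. HFD library 2 stood above all others, HTG library 1 was above the remaining HFD libraries, and the groups overlapped. The group means were 311 ± 127 FPKM (SD, n = 3) and 207 ± 79.1 FPKM (SD, n = 3). The log2 fold change of Ephx2 was -0.58 (standard error 0.38, 95% interval from -1.46 to 0.30, unadjusted p = 0.170, adjusted p = 0.391 in edgeR's quasi-likelihood test). It was -0.12 without HFD library 2, -0.34 without HTG library 3 and -0.93 without HTG library 1, so its size depended on single libraries.

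Among the 5 genes most like Ephx2 over the 6 libraries were Acot3 (r = 0.998), Acot4 (r = 0.996), Rtf2 (r = 0.992) and Acadl (r = 0.988). Acot3, a peroxisomal acyl-CoA thioesterase gene, was at 1.26, 25.4 and 1.29 FPKM in the HFD group and at 4.10, 0.87 and 0.07 FPKM in the HTG group. It had HFD library 2 highest, HTG library 1 second and HTG library 3 lowest, the order of Ephx2 at these places.

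Ephx2 is known as a target of PPAR-alpha in rodent liver, and the median log2 fold change of other targets of that receptor depended on HFD library 2. All 19 listed targets were tested, 6 were lower (against 12.4% of all genes tested) and 1 was higher (against 12.3%) in the HTG group at an unadjusted p under 0.05, with a median log2 fold change of -1.13. Without HFD library 2 the median was 0.11, with 3 higher and 2 lower, while without any other single library it was between -1.54 and -0.78, with between 2 and 8 lower. The summed level of the list was 2080, 5774 and 2593 FPKM in the HFD group and 4239, 6312 and 3199 FPKM in the HTG libraries. HTG library 2 was thus the highest for this sum, where HFD library 2 was the highest for Ephx2. Fabp1, the fatty acid binding protein gene that was the most abundant of the list, was at 890, 2157 and 1168 FPKM in the HFD group and at 2445, 4838 and 2453 FPKM in the HTG group (log2 fold change 1.20, adjusted p = 0.125 in edgeR's quasi-likelihood test). Cpt1a, which encodes the enzyme that controls fatty acid entry into mitochondria and is drawn in the study's heatmap of lipid genes, had the smallest p of the list and a log2 fold change of -1.19 (adjusted p = 0.0654 in edgeR's quasi-likelihood test). Cyp4a14 was at 3.18, 485 and 4.34 FPKM in the HFD libraries and at 143, 52.6 and 1.30 FPKM in the HTG libraries, and so was high in the library in which Ephx2 was highest. The part of this receptor in the Ephx2 values was not tested.

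**Figure D3:**
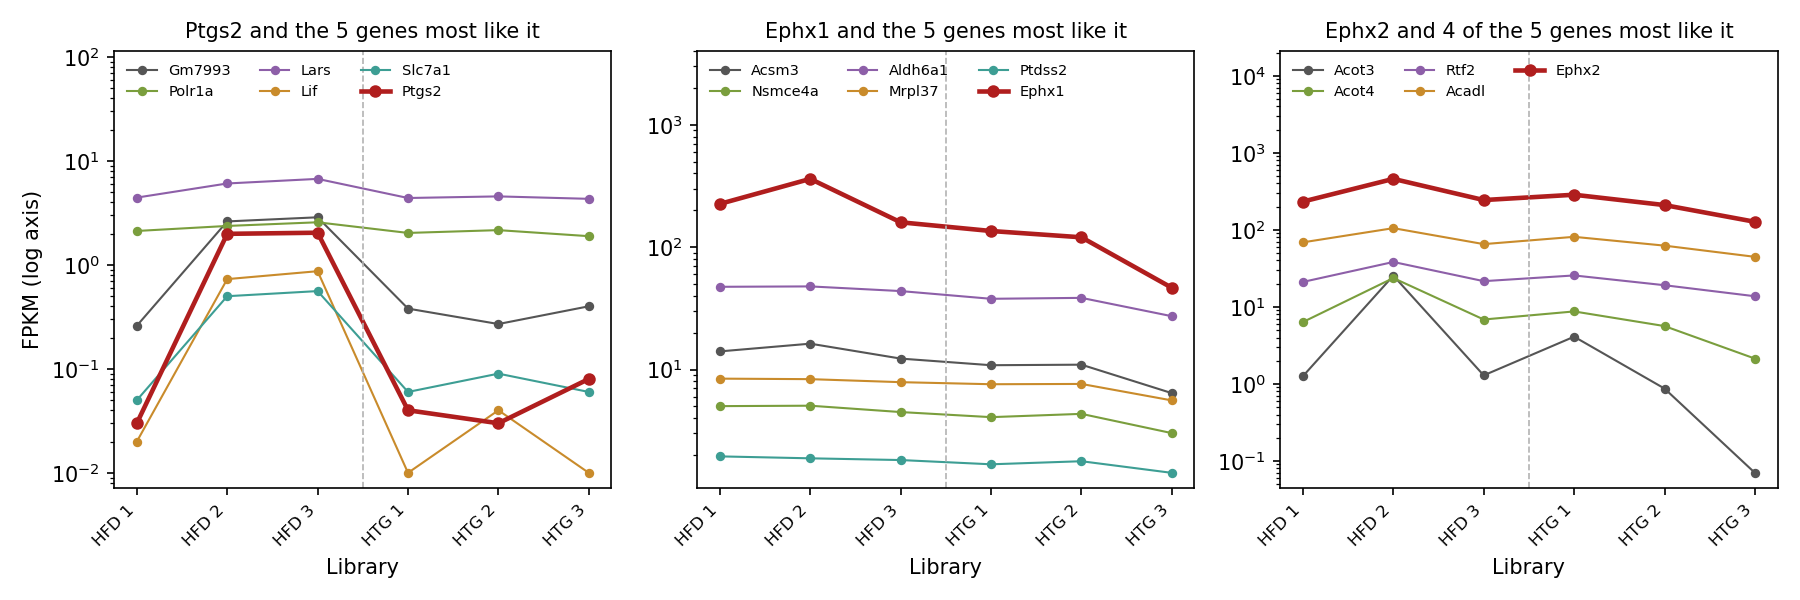
FPKM (log axis) of Ptgs2, Ephx1 and Ephx2 (thick lines) and of the genes most like each (thin lines, 4 of the 5 for Ephx2) in the 3 HFD and 3 HTG libraries, where the lines join the values of 1 gene and the libraries of a group have no order. Ptgs2 is high in HFD libraries 2 and 3, Ephx1 is highest in HFD library 2 and lowest in HTG library 3, and Ephx2 is highest in HFD library 2, with the HTG libraries between 127 and 285 FPKM.

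The epoxide hydrolases were also compared with each other within a library. The ratio of Ephx1 to Ephx2 in FPKM was 0.971, 0.788 and 0.656 in the HFD group and 0.475, 0.574 and 0.366 in the HTG group. Every HTG library had a lower ratio than every HFD library, although both genes had an r of 0.895 with each other over the 6 libraries. The groups were also free of overlap for Ephx1 by itself, and the share of such ratios over other gene pairs is not given here. Of the 4 other listed hydrolase genes, Ephx3 was at no more than 28 counts and Ephx4 at no more than 12 counts in any library, and Mest was between 35 and 111 counts. Lta4h, which encodes leukotriene A4 hydrolase and was the most abundant of the 4, was at 4.27, 3.29 and 4.81 FPKM in the HFD group and at 3.70, 3.36 and 3.60 FPKM in the HTG group (log2 fold change -0.16, adjusted p = 0.614 in edgeR's quasi-likelihood test).

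Ltc4s encodes leukotriene C4 synthase, which makes the first cysteinyl leukotriene (ENSMUSG00000020377, chromosome 11, 50127288 to 50129443). Its counts were 72, 28 and 54 in the HFD group and 69, 218 and 37 in the HTG group. The levels were 1.02, 0.35 and 0.70 FPKM in the HFD group and 0.80, 2.19 and 0.66 FPKM in the HTG group. HTG library 2 stood above the other 5 libraries, whose ranges overlapped between the groups. Ltc4s had a log2 fold change of 0.82 with a 95% interval from -0.45 to 2.08 (adjusted p = 0.397 in edgeR's quasi-likelihood test), and it was 0.17 without HTG library 2. The lncRNA Gm26542 on the opposite strand overlaps 1664 bases of Ltc4s and had 92 counts over the 6 libraries against 478 for Ltc4s, and as it is not stated whether the counting used the strand, the counts of both are uncertain.

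Markers of platelets and megakaryocytes, which also use Ptgs1, were highest in the library in which Ltc4s and Ptgs1 were highest. Of 7 listed 5 were tested, 3 were higher in the HTG group (against 12.3% of all genes tested) and 0 lower at an unadjusted p under 0.05, and none was at 0 in every library. The number higher was 0 without HTG library 2 and 1 without HFD library 3, so it depended on single libraries. Their summed level was 4.04, 4.72 and 2.69 FPKM in the HFD libraries and 7.07, 16.6 and 4.61 FPKM in the HTG libraries. HFD library 3 had the lowest platelet sum, whereas its Ptgs1 level (6.08 FPKM) was below that of HTG library 2 only. Ppbp, the most abundant, was at 1.51, 2.02 and 1.04 FPKM in the HFD libraries and at 3.61, 7.60 and 1.86 FPKM in the HTG libraries, and Itga2b had the smallest p of the list with a log2 fold change of 1.08 (adjusted p = 0.109 in edgeR's quasi-likelihood test). Mast cells and basophils are other known sources of leukotriene C4, and of their 7 listed markers 1 was tested, Mcpt8, at 0.71 FPKM or less, with Fcer1a and Cma1 at 0 in every library. The part of these cells in the Ltc4s and Ptgs1 values was not tested.

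Over the 6 libraries, Hpgd and Ephx1 (r = 0.896), Ephx1 and Ephx2 (r = 0.895) and Ptges and Ptgds (r = 0.874) were the pairs of the 10 genes that went together most closely, and Ptges2 and Ltc4s had the most negative r (-0.880). These r values describe 6 libraries that differ in group, so that a shared difference between the groups enters each of them. HTG library 3, the shallowest, was the lowest of the 6 libraries in FPKM for Hpgd, Ephx1, Ephx2 and Ptgs1, but not for Ptges2, Ptges3, Ptgds, Ptges, Ptgs2 or Ltc4s.

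Beyond the 10 genes, 85 other genes of eicosanoid metabolism were listed by role and 75 of them were tested. EdgeR's quasi-likelihood test called 0 of them at an adjusted p under 0.05, while DESeq2 called 8 of the 75, against 13.4% of all genes tested. Limma on log2(FPKM + 0.1) with a mean FPKM of at least 1 tested fewer than the 75. It called 3 of those, against 8.03% of all genes that it tested. At an unadjusted p under 0.05, 9 of the 75 were lower in the HTG group, against 12.4% of all genes tested, and 4 were higher, against 12.3%, with a median log2 fold change of -0.10. The number lower is thus near the share over all genes tested and is no result about eicosanoid genes. The number higher was 10 without HFD library 2, 2 without HFD library 3 and 2 without HTG library 1, and without HTG library 1 an adjusted p under 0.05 was reached by 4.

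Upstream of the cyclooxygenases, 11 of 14 genes of arachidonate release were tested and 1, Pla2g4a, was lower at an unadjusted p under 0.05, against 12.4% of all genes tested, which is no result about the list. Pla2g4a encodes the cytosolic phospholipase A2 that supplies arachidonic acid to Ptgs1 and Ptgs2, and was at 0.46, 0.46 and 0.53 FPKM in the HFD group and at 0.31, 0.17 and 0.15 FPKM in the HTG group (log2 fold change -1.13, adjusted p = 0.101 in edgeR's quasi-likelihood test). Its groups did not overlap. Pla2g12b, the most abundant of that role, had a log2 fold change of 0.020. Beside Ptges and Ptgds, 7 other prostanoid synthase genes were all tested, with 1 lower at an unadjusted p under 0.05 (near the 12.4% of all genes tested), the carbonyl reductase gene Cbr1 (log2 fold change -0.59, adjusted p = 0.153 in edgeR's quasi-likelihood test).

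Receptors for the products were low, since of 9 listed 5 were tested, and Ptgdr and Ptgdr2, which bind prostaglandin D, were at 0 in every library. The thromboxane receptor gene Tbxa2r was the 1 receptor with an unadjusted p under 0.05 (against 12.3% of all genes tested that were higher), at 0.25, 0.08 and 0.45 FPKM in the HFD group and at 0.55, 0.98 and 0.51 FPKM in the HTG group (log2 fold change 1.40, adjusted p = 0.188 in edgeR's quasi-likelihood test). That unadjusted p was over 0.05 with the replicate block (0.0626) and in 5 of the 6 fits with a single library left out, so the call depended on single libraries. Ptger2, whose mean over the 6 libraries (0.473 FPKM) hardly differed from that of Tbxa2r (0.470 FPKM), was between 0.40 and 0.55 FPKM in all of them. In the leukotriene branch around Ltc4s, 16 of 17 genes were tested. At an unadjusted p under 0.05 in edgeR's quasi-likelihood test 0 were higher (against 12.3% of all genes tested) and 0 lower (against 12.4%). Without HFD library 1, 2 of the 16 were higher. With at least 10 counts in every library, 1 of 13 was higher. With limma on log2(FPKM + 0.1) at a mean FPKM of at least 1, 1 of 4 was lower. The most abundant gene of the branch, Mgst3, which encodes an enzyme with leukotriene C4 synthase activity, was highest in HTG library 2 like Ltc4s, at 21.0 FPKM.

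The genes listed as epoxygenases, the role that makes substrates of Ephx2, did not go one way. They belong to the Cyp2c and Cyp2j families, and whether each enzyme, such as that of Cyp2c70, makes such substrates was not examined here. Of 18 listed 17 were tested, with 2 higher (against 12.3% of all genes tested) and 4 lower (against 12.4%) in the HTG group at an unadjusted p under 0.05 and a median log2 fold change of -0.050. With single libraries left out, between 1 and 4 were higher and between 1 and 5 lower. The median then ran from -0.48 (without HTG library 1) to 0.070 (without HTG library 2). Cyp2c29 was at 317, 460 and 255 FPKM in the HFD group and at 132, 57.5 and 34.9 FPKM in the HTG group (log2 fold change -2.18, adjusted p = 0.0613 in edgeR's quasi-likelihood test). HFD library 2 was the highest and HTG library 3 the lowest for Cyp2c29, as for Ephx1. Cyp2c40 was at 6.35, 5.78 and 7.33 FPKM in the HFD group and at 17.5, 10.2 and 10.2 FPKM in the HTG group (log2 fold change 1.01, adjusted p = 0.0654 in edgeR's quasi-likelihood test). Cyp2c23 had a log2 fold change of 0.60 (adjusted p = 0.173 in edgeR's quasi-likelihood test), and Cyp2c70 had one of 0.70. Cyp2c70 had the highest mean FPKM of the role over the 6 libraries, but in each HFD library Cyp2c29 and Cyp2c50 were above it. Genes of the Cyp2c family are close paralogues, so their counts are uncertain where reads could be shared. Among 12 omega-hydroxylases, all tested, Cyp4f13 was the 1 with an unadjusted p under 0.05 (log2 fold change 0.56, adjusted p = 0.118 in edgeR's quasi-likelihood test), against 12.3% of all genes tested that were higher. The number higher was 5 without HFD library 2 and 0 when HFD library 3 or either of the first 2 HTG libraries was left out.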

How the data were processed

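Liver RNA of 3 HFD and 3 HTG samples was grouped by the labels. The labels name a NEBNext Ultra kit, and the study's methods describe oligo(dT) selection, dUTP marking and paired-end sequencing. Estimated counts, given as whole numbers without normalisation, and FPKM values were deposited by the authors for each gene in each library. The submitters' processing notes name HISAT2, StringTie, SAMtools and the rat build mRatBN7.2, without versions, whereas the rows are mouse genes. Rat reference tables were not used here.

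Counts were tested with edgeR 4.0.16 in R 4.3.3 (glmQLFit, glmQLFTest, TMM, filterByExpr, group as the only term). Alternatives were DESeq2 1.42.0, DESeq2 size factors, upper-quartile scaling, no filter, a minimum of 10 counts in every library, the replicate number as a block, counts divided by 4, limma 3.58.1 on log2 FPKM (pseudocount 0.1 or 1, mean FPKM of at least 1 or no filter), and each library left out. At an assumed 4 counts per fragment, total depth was between 12662194 and 22640869 fragments per library. Scripts were tested on simulated counts. Intervals are 95% intervals of the fit.

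The members, the other eicosanoid genes, 4 response lists and 11 cell type lists were chosen with earlier results of these data known. Named genes were every member, the other eicosanoid genes with the smallest p (up to 5 in each direction under 0.05), the most abundant of each role, and, from each further list, the most abundant gene and the smallest p in each direction. Ranking by likeness used log2(CPM + 0.5), and 1 gene that it gave for Ephx2 is not reported here.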

Additional observations from a re-analysis of the deposited data

How the results depend on the processing

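Over 16 alternatives for each of 65 named genes, the direction of the fitted difference was kept in 951 of 1002 values and turned in 51. Of the 10 genes, Ptgs2, Ptges2, Hpgd, Ephx1, Ephx2 and Ltc4s kept their direction in every alternative that tested them. Ptgs2, Ptges and Ltc4s were not tested where their levels were under a filter. Adjusted p-values over the alternatives ran from 0.00908 to 0.297 for Ptgs2, from 0.0124 to 0.280 for Ephx1, from 0.0126 to 0.240 for Hpgd and from 0.0493 to 0.305 for Ptges2 (DESeq2 gave the lowest for each). The depth limits Ptgs2, Ptges and Ltc4s most, which had the smallest counts of the 10 in their lowest libraries.

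At an adjusted p under 0.05 the quasi-likelihood test of edgeR called 0 of the listed genes. There DESeq2 called 4 of the 10 genes, 8 other eicosanoid genes and 30 genes of the marker and response lists. For the other eicosanoid genes this number was 1 with no filter, 3 with at least 10 counts in every library, 4 with counts divided by 4 and 3 with limma on log2(FPKM + 0.1) or log2(FPKM + 1), and between 0 and 4 with single libraries left out. For the marker and response lists (144 genes tested) it was 2, 6, 6, 11 and 10 in the same order, and between 0 and 8 with single libraries left out (8 without HTG library 1). Over all genes tested the share called was 13.4% with DESeq2, 0.544%, 4.43%, 5.52%, 8.03% and 8.09% in that order with the other alternatives, and 3.38% without HTG library 1. Other eicosanoid genes higher at an unadjusted p under 0.05 numbered 2 with limma on log2(FPKM + 0.1) or log2(FPKM + 1) against 4, and between 2 and 10 with single libraries left out. Marker and response genes higher at that p numbered 10, and between 4 and 14 with single libraries left out (4 without HTG library 2). Apart from the smaller sets tested under the filters, the cause was not tested.

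The log2 fold change of Ptgs1 was -0.011 with DESeq2 and with its size factors, -0.045 with limma on log2(FPKM + 0.1), with or without the filter, and -0.035 on log2(FPKM + 1). Cyp4a14 had 0.19 on log2(FPKM + 0.1), with or without the filter, and 0.24 on log2(FPKM + 1). Pla2g12b had -0.0058 with DESeq2, -0.0056 with its size factors, -0.051 on log2(FPKM + 0.1), with or without the filter, and -0.049 on log2(FPKM + 1). Ptger2 had -0.022 with DESeq2, -0.023 with its size factors, -0.0062 with no filter and -0.042 on log2(FPKM + 0.1), and Cd8a had -0.088 there. With single libraries left out, the ranges that crossed 0 were -0.14 to 0.17 for Ptgs1, -0.21 to 1.57 for Ptges, -0.27 to 0.13 for Ptges3, -0.23 to 0.71 for Ptgds, -2.77 to 4.19 for Cyp4a14, -0.13 to 0.20 for Pla2g12b, -0.17 to 0.079 for Ptger2, -0.075 to 0.42 for C1qa, -0.61 to 0.17 for S100a9, -0.35 to 0.46 for Krt19, -0.68 to 0.046 for Spp1 and -0.28 to 0.48 for Cd8a.

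With the replicate block, 0 of the 10 genes had an adjusted p under 0.05 in the quasi-likelihood test of edgeR and 4 had an unadjusted p under 0.05, all lower, as without it. Over all genes tested the block called 0 genes higher and 0 lower at the adjusted p, against 1 and 1. At an unadjusted p under 0.05 it had 1941 of 18455 genes lower and 1926 higher, against 2288 and 2275 without it. Pla2g12b was at -0.0065, Ptger2 at -0.0068 and Cd8a at -0.078 with the block. Deviations of samples with the same number correlated with r of -0.13, -0.11 and 0.19, and not every sample correlated best with its own number, so the numbers were not taken to pair the samples.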

Other observations

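The remaining cell type lists gave the following levels beside the 10 genes. At an unadjusted p under 0.05, 12.3% of all genes tested were higher and 12.4% lower in the HTG group, and the small counts of these lists below are to be read against those shares and are no result about the cell types. Neutrophil and monocyte markers (10 of 10 tested, with an unadjusted p under 0.05 for 1 higher and 1 lower gene) summed to 68.0, 99.7 and 88.2 FPKM in HFD libraries 1, 2 and 3 and to 42.8, 72.9 and 115 FPKM in HTG libraries 1, 2 and 3. In that list S100a9 was the most abundant, Chil3 had a log2 fold change of -1.33 and Csf3r one of 0.95. Stellate cell and fibroblast markers (10 of 10 tested, 1 higher and 1 lower) were led by Dcn, with Reln at -0.70 and Des at 0.68. Without HFD library 2, 4 of them were lower and 0 higher. Endothelial markers (8 of 8 tested, 0 with an unadjusted p under 0.05 in edgeR's quasi-likelihood test and 0 with an adjusted one) summed to 37.3, 13 and 27.7 FPKM in the HFD libraries and to 36.1, 35.7 and 18.5 FPKM in the HTG libraries, with Clec4g as the most abundant, Cdh5 at -0.43 and Stab2 at 0.53. HFD library 2 was the lowest for endothelium and had the lowest Hpgd level of its group. Without that library, 2 endothelial markers were lower.

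Cholangiocyte markers (6 of 6 tested, 1 higher and 1 lower) were led by Spp1, with Epcam at -0.95 and Sox9 at 0.79. Lymphocyte markers (7 of 8 tested, 0 at an unadjusted p under 0.05 in edgeR's quasi-likelihood test) had Cd8a as the highest in mean FPKM over the 6 libraries (but not in the HFD mean), with Cd79b at -0.73 and Cd3g at 0.52. Red cell markers (6 of 6 tested, 0 higher and 1 lower) had Hbb-bs as the highest in that mean (but not in the HTG mean), with Alas2 at -0.49 and Hba-a1 at 0.86. Without HTG library 2, 2 lymphocyte markers were lower, and 2 red cell markers were higher without HFD library 3 or HTG library 3. Among the 8 hepatocyte markers 1 was higher and 2 were lower, with Apoa2 at 0.85 and Cps1 at -1.62 (adjusted p = 0.0568 in edgeR's quasi-likelihood test). Without HFD library 3, 4 of them were lower. Of the 8, 6 had negative log2 fold changes (against 48.4% of all genes tested), with a median of -0.47. In normalised counts the groups did not overlap for 4 with the HTG group below (against 15.5%) and for 1 above (against 16.5%). DESeq2 called 3 at an adjusted p under 0.05, against 13.4%. The part of hepatocytes in the Hpgd, Ephx1 and Ptges2 values was not tested. Cps1, which encodes the first enzyme of the urea cycle, was at 370.1, 360.0 and 714 FPKM in the HFD libraries and at 155, 154 and 145 FPKM in the HTG libraries. Its order of the HFD libraries was not that of Ephx1, Ephx2 or Hpgd.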
